A study of Mus musculus with 28 samples.

Results

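The 10 genes described here mark T cells and cytotoxic lymphocytes and were followed through the healing of a skin wound in the mouse. They were listed by name: Cd3d, Cd3e, Cd3g and Cd247, which encode the signalling chains of the T cell receptor complex, the coreceptors Cd4 and Cd8a, the cytotoxic lymphocyte genes Nkg7, Klrd1 and Gzmb, and Thy1. All 10 were among the 29068 genes of the count table, and all 10 were among the 18107 genes with enough counts for a test. Total RNA of wound skin was sequenced in 28 libraries, 4 on each of Day0, Day3, Day5, Day7, Day10, Day12 and Day14 of natural wound healing. The animals were MLKL+/+ mice, labelled C57BL/6J and 8 weeks old by the study's methods, which used both sexes, and all carried intact Mlkl. The wound was a punch through the skin of the back down to the fascia. By the methods, the whole wound site with scab and epithelial margin was collected. A library thus mixed epidermis, dermis, muscle and any infiltrating cells in a single RNA pool. The methods do not describe the Day0 tissue apart from that of the other days, so it may have differed in make-up from a wound site. Day0 was the control in the labels, while the methods call the earliest time point day 1, and the labels speak of 5 repeats where 4 libraries a day were analysed here. No source used here says that the 4 libraries of a day came from separate animals, and p-values then measure the spread between these libraries only.

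T cells recognise antigen through a receptor whose variable chains do not signal by themselves. The CD3 gamma, delta and epsilon chains and the zeta chain encoded by Cd247 carry the signal into the cell, and CD4 or CD8 binds the same MHC molecule as the receptor. Natural killer cells and cytotoxic T cells kill by releasing granules that hold perforin and granzymes. Mouse skin holds an epidermal network of gamma delta T cells, which carry CD3 and mostly lack both coreceptors, together with dermal T cells, and a wound is entered by neutrophils and monocytes. Several of the 10 genes are not restricted to lymphocytes: CD4 protein is also found on some macrophages and dendritic cells, THY1 on fibroblasts and neurons, and granzyme B has been described in mast cells and other myeloid cells.

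Library totals over all genes ran from 36706513 to 40655764 counts (median 39499595), so depth differed little. The Day0 libraries varied most among themselves, with a biological coefficient of variation of 26.5% against 5.77% to 10.8% on the other days. They stood in 2 pairs. Summed fibroblast markers were 56096 and 53864 CPM (counts scaled to the library total) in Day0 replicates 2 and 3, but 25133 and 14398 CPM in replicates 1 and 4, and summed skeletal muscle markers were 16381 and 16701 CPM against 26363 and 27464 CPM. Gzmb, Nkg7 and Thy1, higher in replicates 1 and 4, and Cd4, Cd3d, Cd3g and Cd247, lower in them, followed the same division without overlap. Cd3e, Cd8a and Klrd1 did not. The fits were repeated with each pair of Day0 libraries alone, an analysis chosen after the data were seen, and each call of the 10 genes that changed is given below. Genes of the other lists were not examined in this way.

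In the GRCm38 (mm10) assembly, the build named in the submitters' processing notes, and GENCODE M21, the 3 CD3 genes lie within 40056 bases of chromosome 9. Cd3g occupies chr9:44969572-44980431 on the minus strand and Cd3d chr9:44981786-44987339 on the plus strand, so that they are transcribed away from each other from starts 1355 bases apart, and Cd3e lies at chr9:44998740-45009627 on the minus strand. Thy1 is on the same chromosome at chr9:44043384-44048579. Cd4 (chr6:124864692-124888221), Cd8a (chr6:71373427-71379173) and Klrd1 (chr6:129591782-129598775) are on chromosome 6, Nkg7 is at chr7:43437073-43438249 and Gzmb at chr14:56258838-56262260. Cd247 (chr1:165788681-165877277) shares 12124 bases with Pou2f1, a gene on the opposite strand. The strandedness of the counting is not given in the sources used here, so reads from that stretch cannot be assigned to Cd247 or to Pou2f1.

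The 250 bases before the RefSeq start site (GRCm38.p6) are shown for the 3 clustered CD3 genes, whose mean levels were highest on Day0, and for Gzmb, whose mean level was highest on Day3. Capitals mark the core of sites for ETS factors (AGGAAG, or CTTCCT on the other strand) and for runt factors (TGTGGT, or ACCACA), both families known in lymphocyte gene control. RefSeq promoters were matched for 7 of the 10 genes.
Cd3g, chr9:44980432-44980681, minus strand: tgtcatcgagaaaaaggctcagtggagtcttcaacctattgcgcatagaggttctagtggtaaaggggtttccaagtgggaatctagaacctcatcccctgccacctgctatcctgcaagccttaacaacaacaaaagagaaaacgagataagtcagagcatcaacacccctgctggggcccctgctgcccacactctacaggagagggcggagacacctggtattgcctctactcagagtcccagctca
Cd3d, chr9:44981536-44981785, plus strand: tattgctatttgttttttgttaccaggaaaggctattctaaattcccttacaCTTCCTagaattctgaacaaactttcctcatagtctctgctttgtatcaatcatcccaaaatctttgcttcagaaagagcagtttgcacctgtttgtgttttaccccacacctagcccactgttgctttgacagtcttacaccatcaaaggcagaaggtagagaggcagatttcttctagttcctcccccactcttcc
Cd3e, chr9:45009612-45009861, minus strand: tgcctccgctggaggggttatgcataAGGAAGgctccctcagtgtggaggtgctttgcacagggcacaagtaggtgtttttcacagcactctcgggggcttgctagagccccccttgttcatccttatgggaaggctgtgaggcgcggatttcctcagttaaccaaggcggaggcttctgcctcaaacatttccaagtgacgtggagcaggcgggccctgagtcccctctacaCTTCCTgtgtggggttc
Gzmb, chr14:56262335-56262584, minus strand: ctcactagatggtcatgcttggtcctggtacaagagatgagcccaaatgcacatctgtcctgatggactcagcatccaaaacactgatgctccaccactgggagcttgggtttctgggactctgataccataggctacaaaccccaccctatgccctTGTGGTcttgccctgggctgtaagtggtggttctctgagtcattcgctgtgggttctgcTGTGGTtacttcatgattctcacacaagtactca
Searching both strands, the ETS core was found once in the Cd3d window, 2 times in the Cd3e window and not in the Cd3g window, and the runt core was found 2 times in the Gzmb window. Over the 7 matched genes, 4 windows held an ETS core and 2 a runt core, and no 2 matches shared a base. Of 32851 mouse promoters of the same length, 29.5% held the ETS core and 14% the runt core, so that short matches of this kind are common, and a match describes these letters and not a bound site.

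Over the 7 days, each of the 10 genes differed between days in a joint test (edgeR's quasi-likelihood F test, highest Benjamini-Hochberg adjusted p = 8e-04, for Cd8a), as did 89.5% of all genes tested. A gene is called higher or lower below when the same fit gave an adjusted p under 0.05 over all genes for one day against another. All 6 comparisons with Day0 share the 4 Day0 libraries. The genes moved in both directions early and were mostly lower late. On Day3, 4 of the 10 genes were higher than on Day0, namely Gzmb, Klrd1, Cd4 and Thy1 (31.8% of all genes were higher), and 5 were lower, namely the 4 CD3 and zeta chains and Nkg7 (34.8% of all genes). On Day14, 8 were lower (34.5% of all genes), Thy1 was the 1 gene that was higher (28.2% of all genes), and Cd8a was not called. In bulk RNA, fewer cells of a type, less RNA per cell and more RNA from other cells cannot be told apart. The levels are shares of a scaled library total.

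**Figure D1:**
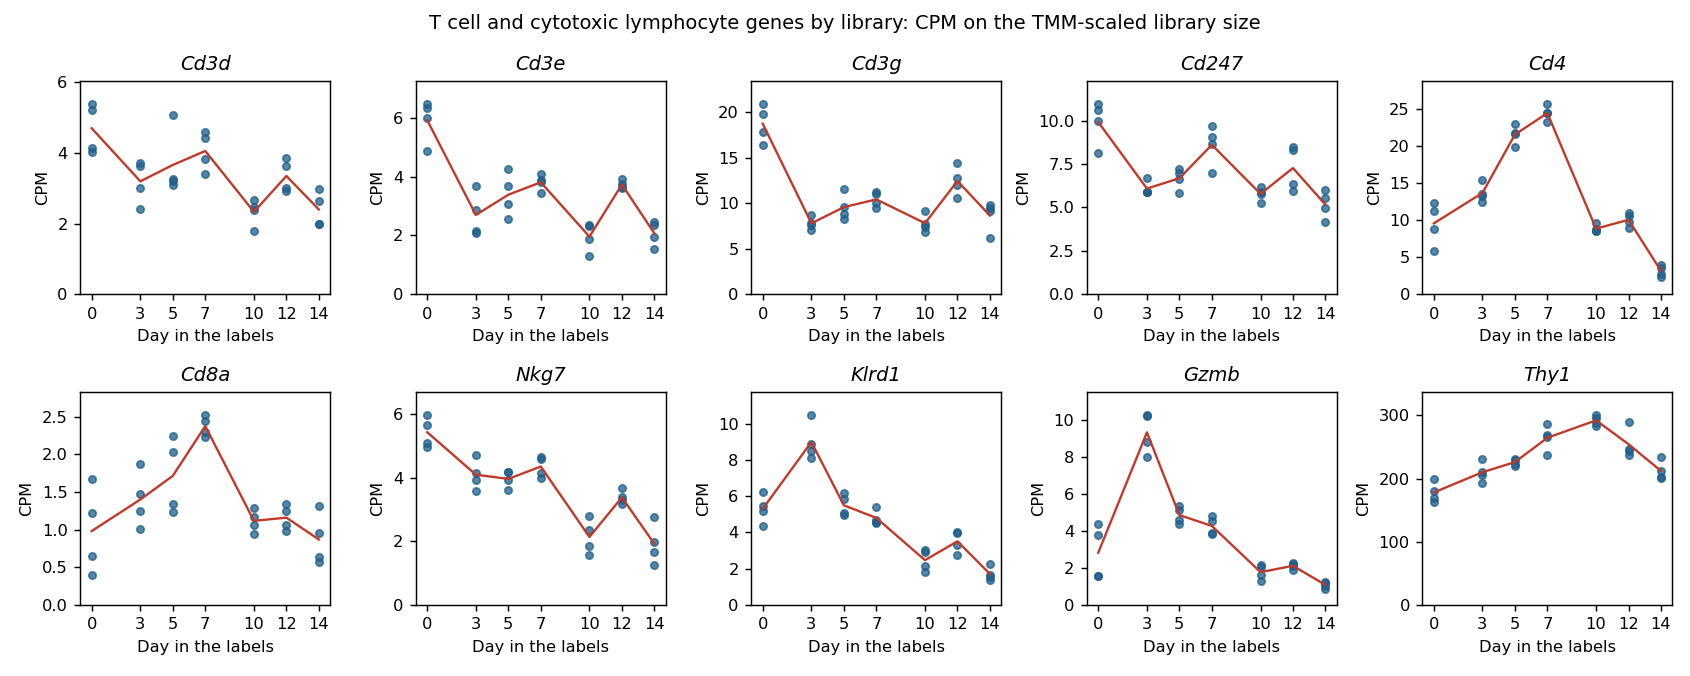
Each panel plots 1 gene, with the day in the labels on the x axis and CPM on the TMM-scaled library size on the y axis, which starts at 0; points are the 4 libraries of a day and the line joins the day means. Cd4 and Cd8a peaked on Day7, Klrd1 and Gzmb on Day3 and Thy1 on Day10, while the CD3 and zeta chains and Nkg7 had their highest mean on Day0.

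Between these ends, Day5 had 4 genes higher (29.0% of all genes), namely Cd4, Cd8a, Gzmb and Thy1, and 4 lower (30.6%), namely Cd3e, Cd3g, Cd247 and Nkg7. On Day7, 4 were higher (25.6%), the same genes by name as on Day5, and 2 were lower (24.8%), Cd3e and Cd3g. On Day10, Thy1 alone was higher (23.5%) and 7 were lower (26.9%), all but Thy1, Cd4 and Cd8a. On Day12, Thy1 was again the 1 higher gene (21.7%) and 6 were lower (25.6%), the CD3 and zeta chains with Nkg7 and Klrd1. The median log2 fold change of the 10 genes against Day0 was -0.084, -0.16, -0.17, -0.90, -0.47 and -1.25 from Day3 to Day14, where that of all genes stayed between -0.056 and 0.0024. Set side by side without overlap of the 4 and 4 libraries, 3 genes lay above all Day0 libraries and 5 below on Day3 (28.2% and 28.6% of all genes), and 1 lay above and 8 below on Day14 (23.4% and 27.3%).

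Cd3e, which encodes the epsilon chain that every CD3 dimer contains, was lower than on Day0 on all 6 wound days. Its counts were 240, 238, 250 and 175 on Day0, 137, 105, 76 and 78 on Day3, and 159, 149, 152 and 136 on Day7. They then were 74, 93, 51 and 95 on Day10, 167, 161, 165 and 157 on Day12, and 97, 82, 100 and 64 on Day14. All 24 wound libraries were below all 4 Day0 libraries, and Day10 and Day14 were below Day7 and Day12 without overlap. The mean fell from 5.93 ± 0.73 CPM (SD, n = 4) on Day0 to 2.70 ± 0.75 CPM on Day3, and stood at 1.96 ± 0.49 CPM on Day10, 3.73 ± 0.14 CPM on Day12 and 2.07 ± 0.42 CPM on Day14. The decrease was 2.20-fold on Day3 (log2 fold change -1.14 ± 0.19 SE, adjusted p = 6.53e-06), 1.56-fold on Day7 (adjusted p = 0.00491), 3.02-fold on Day10 (adjusted p = 8.07e-08), 1.59-fold on Day12 (adjusted p = 0.0037) and 2.86-fold on Day14 (adjusted p = 9.16e-08).

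Cd3g, the gamma chain gene, had the highest level of the 4 chain genes per gene length, at 17.9 FPKM (fragments scaled to gene length and library total) on Day0 against 3.82 FPKM for Cd3e and 3.04 FPKM for Cd3d. Its Day0 counts of 621, 829, 764 and 643 compared with 321, 260, 286 and 276 on Day3, a 2.41-fold decrease (adjusted p = 2.13e-09). Day12 libraries held 616, 532, 563 and 456 counts, all below Day0 and all above the 295, 371, 269 and 311 counts of Day10. On Day14 the counts were 256, 415, 384 and 381, and the lone low library, replicate 1, stood apart from the other 3. Cd3g was lower than on Day0 by 1.51-fold on Day12 (adjusted p = 0.00039) and 2.17-fold on Day14 (adjusted p = 2.34e-08).

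Cd3d, the delta chain gene, moved less. It had 157, 207, 208 and 145 counts on Day0, 138, 89, 133 and 109 on Day3, and 125, 118, 122 and 187 on Day5. It was 1.47-fold lower on Day3 (adjusted p = 0.0084), a call that was lost without Day3 replicate 2 (adjusted p = 0.0711) and with Day0 replicates 1 and 4 alone (0.219). On Day5 the 1 high library, replicate 4, overlapped Day0, and the log2 fold change of -0.36 was not called (adjusted p = 0.0833), while without that library it was -0.56 (adjusted p = 0.00883) and with Day0 replicates 2 and 3 alone -0.54 (adjusted p = 0.0248). Cd3d was 2.02-fold lower on Day10 (adjusted p = 4.17e-05) and 1.96-fold lower on Day14 (adjusted p = 4.3e-05). Its call on Day12 (1.40-fold lower, adjusted p = 0.0256) was lost without Day0 replicate 2 or 3 or Day12 replicate 2 or 4 (adjusted p between 0.0707 and 0.082), in limma on log2(FPKM + 1) (adjusted p = 0.133), without composition normalization (0.108) and with Day0 replicates 1 and 4 alone (0.321).

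Cd247, the zeta chain gene, had 307, 434, 409 and 359 counts on Day0 and 217, 217, 244 and 214 on Day3. The groups did not overlap, and the decrease was 1.63-fold (adjusted p = 3.24e-05). On Day7 the counts of 376, 339, 356 and 275 reached into the Day0 range (log2 fold change -0.21, adjusted p = 0.191). Day14 held 171, 234, 244 and 207 counts, 1.92-fold lower than Day0 (adjusted p = 5.29e-07). The Day12 call (1.36-fold lower, adjusted p = 0.00544) was lost in limma on log2(FPKM + 1) (adjusted p = 0.0569), without composition normalization (0.0534) and with Day0 replicates 1 and 4 alone (0.113). Cd247 was read with the limit that Pou2f1 overlaps it.

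Cd4, the coreceptor of helper and regulatory T cells, took the opposite course through the first week. Its counts were 335, 486, 433 and 209 on Day0, 572, 487, 496 and 448 on Day3, 832, 876, 818 and 733 on Day5, and 945, 908, 956 and 1015 on Day7. From Day5 to Day7 every library lay above the highest Day0 library, and the Day3 libraries lay above it in CPM by a narrow margin, at 12.4 CPM for the lowest against 12.3 CPM. The mean of 9.54 ± 2.87 CPM on Day0 became 24.4 ± 0.99 CPM on Day7, 2.56-fold higher (log2 fold change 1.35 ± 0.15 SE, adjusted p = 1.48e-08), after 1.43-fold on Day3 (adjusted p = 0.00364) and 2.25-fold on Day5 (adjusted p = 1.19e-07). The Day3 call was lost with the 8 libraries of that comparison alone (adjusted p = 0.0742) and with Day0 replicates 2 and 3 alone (0.113). By Day10 the counts were back at 347, 345, 373 and 342, inside the Day0 range (adjusted p = 0.559). Against Day0 replicates 2 and 3 alone Cd4 was lower on Day10 (log2 fold change -0.41, adjusted p = 0.00494), and against replicates 1 and 4 alone it was higher on Day12 (0.47, adjusted p = 0.011). On Day14 its counts were 97, 113, 145 and 165, all below Day0. The decrease on Day14 was 3.05-fold (log2 fold change -1.61 ± 0.16 SE, adjusted p = 1.63e-09). In order of mean level the days were Day7, Day5, Day3, Day12, Day0, Day10 and Day14, and of the neighbours in this order Day7 and Day5 (adjusted p = 0.384), Day12 and Day0 (0.733) and Day0 and Day10 (0.559) did not pass the test, while Day3 was not compared with Day12, nor Day10 with Day14.

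Cd8a, the coreceptor of cytotoxic T cells, was the gene with the fewest counts, and precision was lowest for it. It had 46, 66, 25 and 14 counts on Day0, 86, 47, 51 and 75 on Day5, 89, 87, 96 and 100 on Day7, and 26, 24, 39 and 55 on Day14. The Day7 libraries were close to each other and all above Day0, and the increase was 2.41-fold (log2 fold change 1.27 ± 0.31 SE, adjusted p = 0.00102). On Day5, 2 of the 4 libraries lay above all Day0 libraries, and the 1.74-fold increase (adjusted p = 0.0282, exact permutation p = 0.114) was lost without Day0 replicate 3 or 4 or Day5 replicate 1 or 4 (adjusted p between 0.0716 and 0.106), with the 8 libraries of the comparison alone (0.158) and with Day0 replicates 2 and 3 alone (0.147). On Day3, Day10, Day12 and Day14 Cd8a was not called (adjusted p between 0.155 and 0.665), and with SEs of 0.31 to 0.32 on the log2 scale a difference of moderate size was not detectable at this depth. On Day3 it was called without Day0 replicate 2 (log2 fold change 0.89, adjusted p = 0.0153) and with Day0 replicates 1 and 4 alone (0.84, adjusted p = 0.0451).

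Gzmb encodes granzyme B, a granule protease that triggers death of the target cell, and it showed the largest early increase of the 10 genes. Its counts were 143, 62, 59 and 157 on Day0, 296, 374, 322 and 372 on Day3, 175, 203, 195 and 160 on Day5, and 186, 152, 177 and 151 on Day7. All 4 Day3 libraries lay above all others of any day. The mean rose from 2.81 ± 1.48 CPM on Day0 to 9.31 ± 1.10 CPM on Day3, a 3.32-fold increase (log2 fold change 1.73 ± 0.23 SE, adjusted p = 1.86e-07). The Day3 increase was called with Day0 replicates 2 and 3 alone (log2 fold change 2.59) and with replicates 1 and 4 alone (1.24). Later differences depended on which Day0 libraries were used.
On Day5 the 1.73-fold increase (adjusted p = 0.00435, exact permutation p = 0.0571) was not called against Day0 replicates 1 and 4 alone (log2 fold change 0.26, adjusted p = 0.204) or with the 8 libraries of the comparison alone (0.0772). On Day7 the 1.52-fold increase (adjusted p = 0.0312, exact permutation p = 0.114) became a log2 fold change of 0.062 against replicates 1 and 4 (adjusted p = 0.79). The Day7 call was also lost without Day0 replicate 2 or 3 or Day7 replicate 1 or 3 (adjusted p between 0.0633 and 0.132) and with the 8 libraries of the comparison alone (0.201). Day10 held 50, 65, 79 and 87 counts, of which 1 library lay below all Day0 libraries. The 1.59-fold decrease (adjusted p = 0.0234, exact permutation p = 0.343) was lost without Day0 replicate 1 or 4 or Day10 replicate 1 or 2 (adjusted p between 0.0583 and 0.188), in limma on log2(FPKM + 1) (0.133) and with the 8 libraries of the comparison alone (0.187), and it turned to a log2 fold change of 0.19 against Day0 replicates 2 and 3 (adjusted p = 0.468). On Day12 Gzmb was not called (log2 fold change -0.41, adjusted p = 0.158), with 0.44 against replicates 2 and 3 (adjusted p = 0.0694) and -0.94 against replicates 1 and 4 (adjusted p = 6.74e-05), and it was called lower without Day0 replicate 2 (-0.61, adjusted p = 0.0294) or replicate 3 (-0.61, adjusted p = 0.0271). On Day14 the counts of 41, 50, 51 and 36 were below all 4 Day0 libraries, 2.61-fold lower (adjusted p = 2.98e-05). The order of mean levels was Day3, Day5, Day7, Day0, Day12, Day10 and Day14, in which Day5 and Day7 (adjusted p = 0.587), Day0 and Day12 (0.158) and Day12 and Day10 (0.441) did not pass the test, while Day10 was not compared with Day14.

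Klrd1 encodes CD94, which pairs with NKG2 proteins to form receptors of natural killer and some T cells. It had 235, 216, 199 and 157 counts on Day0, 389, 312, 296 and 321 on Day3, and 223, 188, 192 and 227 on Day5. The rise to Day3 was 1.69-fold (log2 fold change 0.76 ± 0.16 SE, adjusted p = 0.000117) with no overlap, and by Day5 the libraries lay inside the Day0 range again (adjusted p = 0.799). The counts were 115, 122, 83 and 73 on Day10, 171, 147, 174 and 118 on Day12 and 69, 58, 91 and 64 on Day14, all below Day0 when set as CPM. The decreases were 2.15-fold on Day10 (adjusted p = 2.77e-06), 1.51-fold on Day12 (adjusted p = 0.00317) and 3.11-fold on Day14 (adjusted p = 3.09e-09).

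Nkg7 encodes a membrane protein of cytotoxic granules that takes part in their release. It did not share the early increase of Gzmb and Klrd1. Its counts of 227, 197, 197 and 204 on Day0 were followed by 133, 145, 173 and 150 on Day3, 93, 113, 72 and 63 on Day10, 144, 163, 146 and 137 on Day12, and 52, 84, 113 and 69 on Day14. Every wound library lay below every Day0 library. The Day3 decrease was 1.33-fold (adjusted p = 0.0336) and that on Day5 1.37-fold (adjusted p = 0.0211), and both were lost against Day0 replicates 2 and 3 alone (0.189 and 0.136). The Day3 call was also lost without any 1 of 9 libraries, Day0 replicates 1 and 4, Day3 replicates 1, 2 and 4, Day5 replicate 3, Day7 replicates 1 and 4 and Day10 replicate 1 (adjusted p between 0.062 and 0.147), and the Day5 call without Day0 replicate 1 or Day5 replicate 1 (0.059 and 0.0605). Day7 was not called (log2 fold change -0.32, adjusted p = 0.112), except with its 8 libraries alone (0.0425). The later decreases were firmer, at 2.54-fold on Day10 (adjusted p = 2.56e-07), 1.61-fold on Day12 (adjusted p = 0.00138) and 2.83-fold on Day14 (adjusted p = 2.33e-08).

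Thy1 encodes a small surface glycoprotein that marks mouse T cells and is also present on fibroblasts. Its level was of another order than that of the other 9 genes, at 100 FPKM on Day0 and 171 FPKM on Day10, where the other 9 genes lay between 0.30 and 17.9 FPKM on those days and on Day14. The counts were 7549, 6691, 6297 and 6471 on Day0, 10410, 10370, 11238 and 9404 on Day7, 11440, 11409, 11792 and 11952 on Day10, and 8292, 8529, 9527 and 8855 on Day14. Apart from Day3, where 1 library fell into the Day0 range in CPM, no wound library overlapped with Day0. Thy1 was higher than on Day0 on all 6 wound days, from 1.18-fold on Day3 (adjusted p = 0.00438) to 1.64-fold on Day10 (adjusted p = 3.08e-09) and 1.19-fold on Day14 (adjusted p = 0.00297). Summed fibroblast markers without Thy1 stood at 14398 to 56096 CPM on Day0, 55194 to 56224 CPM on Day7, 52620 to 59867 CPM on Day10 and 16075 to 19254 CPM on Day14, and their part in the level of Thy1 was not tested.

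**Figure D2:**
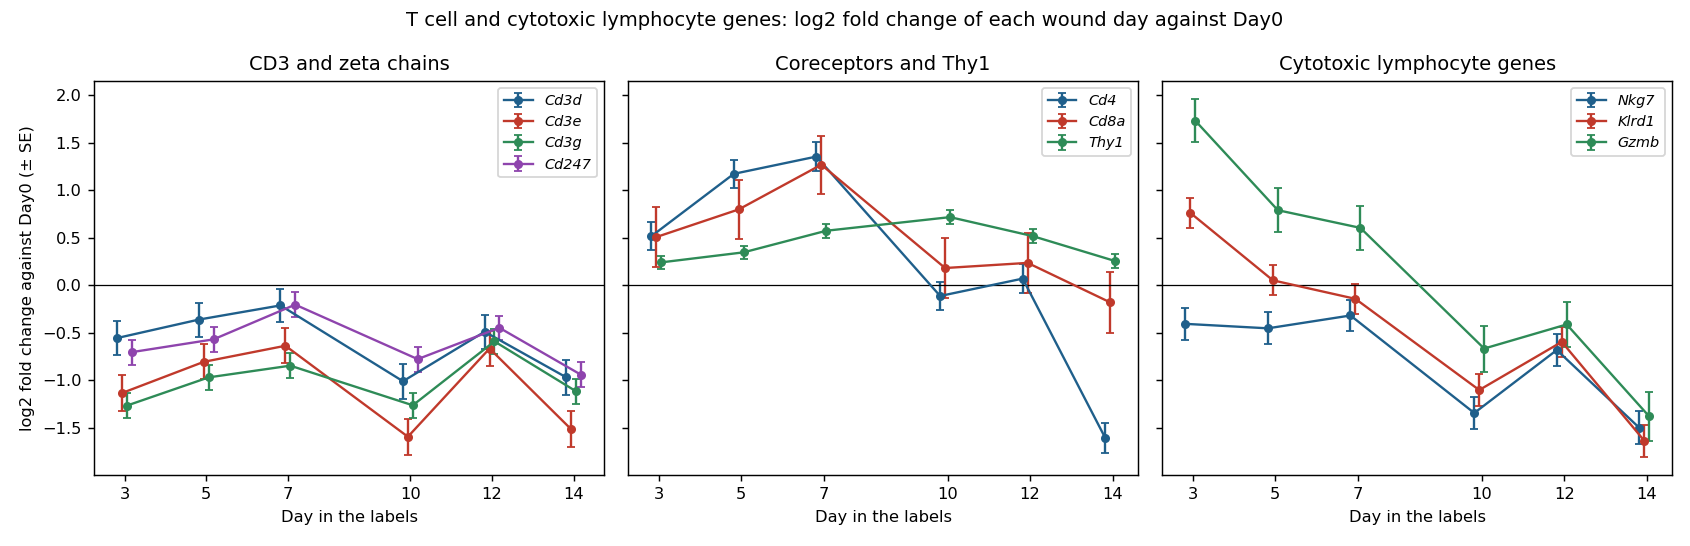
The log2 fold change of each wound day against Day0 is plotted on the y axis, with bars of 1 SE from edgeR's fit, and the day in the labels on the x axis, in 3 panels for the receptor chains, the coreceptors with Thy1, and the cytotoxic lymphocyte genes. The 4 chains lay below 0 on every day and rose again on Day12, Cd4 and Cd8a rose to 1.35 and 1.27 on Day7, and Gzmb and Klrd1 stood at 1.73 and 0.76 on Day3 and at -1.38 and -1.64 on Day14, with values on Day12 above those on Day10.

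By the criteria of the study's methods, a log2 fold change beyond 1.5 with an unadjusted P under 0.05, few of these differences qualified. Against Day0, Gzmb was higher on Day3 (6.50% of all genes were higher by this rule), Cd3e was lower on Day10 (5.14% lower), and Cd3e, Cd4, Nkg7 and Klrd1 were lower on Day14 (8.83% lower). No other of the 10 genes qualified against Day0, where 12.4% of all genes were lower on Day3, 5.61% higher and 8.31% lower on Day5, 4.66% higher and 4.74% lower on Day7, 4.33% higher on Day10, 3.89% higher and 3.51% lower on Day12 and 5.15% higher on Day14. Cd3e on Day14 and Nkg7 on Day14, at log2 fold changes of -1.517 and -1.502, lay just past the limit, and Gzmb on Day14, at -1.38, just short of it. Between successive days, Cd4 from Day12 to Day14 qualified as lower, at a log2 fold change of -1.68 (2.78% of all genes were lower by this rule).

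Fold changes between successive wound days set no Day0 library against another day. The Day0 libraries still entered the shared fit, and so the spread behind these p-values. Leaving out a Day0 library was not tried for these comparisons. From Day3 to Day5, Cd4 rose 1.58-fold (adjusted p = 0.00134; 12.9% of all genes rose), and Klrd1 and Gzmb fell 1.64-fold and 1.92-fold (adjusted p = 0.0012 and 0.0022; 11.4% of all genes fell). From Day5 to Day7, Thy1 and Cd247 rose 1.17-fold and 1.29-fold (adjusted p = 0.0165 and 0.0358; 13.9% of all genes rose), and none of the 10 genes fell (14.6% of all genes fell). Neither call was firm, since Cd247 was lost without Day5 replicate 2 or 3 or Day7 replicate 1, 2 or 3 (adjusted p between 0.0613 and 0.135), and Thy1 without Day5 replicate 3 or Day7 replicate 3 (0.0515 and 0.0562).

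From Day7 to Day10, 9 of the 10 genes fell, all but Thy1, where 18.0% of all genes fell, and none rose (14.3% of all genes rose). The fall was 2.77-fold for Cd4 (adjusted p = 1.6e-08), 2.41-fold for Gzmb (adjusted p = 0.000138), 2.13-fold for Cd8a (adjusted p = 0.00631), 2.04-fold for Nkg7 (adjusted p = 3.86e-05), and 1.94-fold for both Klrd1 and Cd3e (adjusted p = 4.86e-05 and 0.000321). In all 9 the 4 Day10 libraries lay below the 4 Day7 libraries (20.1% of all genes did). Cd3g had the smallest fall of them, 1.34-fold (adjusted p = 0.0155), and it was not called without Day10 replicate 3 (adjusted p = 0.0558). For Thy1 the log2 fold change was 0.14 (adjusted p = 0.128), and without composition normalization it was called higher at 0.19 (adjusted p = 0.0229).

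From Day10 to Day12, 6 genes rose, the 4 chains with Nkg7 and Klrd1, where 18.7% of all genes rose. Cd3e rose 1.90-fold (adjusted p = 0.000308), Cd3g 1.59-fold (adjusted p = 0.000145) and Nkg7 1.58-fold (adjusted p = 0.00326), each without overlap. Cd4, Cd8a and Gzmb were not called (adjusted p between 0.358 and 0.911). The rises of Cd3d, Klrd1 and Cd247 were less firm: Cd3d was lost without Day10 replicate 3 or Day12 replicate 1 or 3 (adjusted p between 0.0645 and 0.097), Klrd1 without Day10 replicate 3 or 4 or Day12 replicate 1 or 3 (between 0.0566 and 0.0692), and Cd247 in 10 of 24 fits without 1 library (up to 0.179, without Day12 replicate 3), so that 3 genes were left as higher without Day10 replicate 3 or Day12 replicate 3. Thy1 fell 1.15-fold (adjusted p = 0.0266; 20.7% of all genes fell), which was lost in 6 of 24 fits without 1 library, those without Day10 replicate 1, 3 or 4 or Day12 replicate 2, 3 or 4 (adjusted p between 0.0549 and 0.0903), and without composition normalization (0.184).

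From Day12 to Day14, 9 genes fell, all but Cd8a, where 25.3% of all genes fell, and none rose (19.9% of all genes rose). Cd4 fell 3.197-fold (adjusted p = 3.32e-09), Klrd1 2.06-fold (adjusted p = 1.74e-05), Gzmb 1.96-fold (adjusted p = 0.00289), Cd3e 1.80-fold (adjusted p = 0.000676) and Nkg7 1.76-fold (adjusted p = 0.000413). The fall of Cd3d, 1.40-fold (adjusted p = 0.0346), was lost in 16 of 24 fits without 1 library (adjusted p up to 0.116, without Day12 replicate 3). Cd8a had a log2 fold change of -0.42 (adjusted p = 0.295).

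A level relative to Cd3e within the same library does not depend on how libraries are scaled, and it shows which genes moved apart from the epsilon chain. On Day0, log2 CPM of Cd4 minus that of Cd3e was 0.64 ± 0.34 (SD, n = 4), and it was 2.35 ± 0.29 on Day3, 2.67 ± 0.31 on Day5, 2.67 ± 0.15 on Day7, 2.18 ± 0.46 on Day10, 1.41 ± 0.096 on Day12 and 0.58 ± 0.56 on Day14. All libraries from Day3 to Day12 lay above all Day0 libraries, and those of Day14 did not. Cd8a was 1.80 above its Day0 difference on Day3 and 2.05 above on Day7. Gzmb was 3.01 above on Day3 and 0.30 above on Day14, and Klrd1 was 1.91 above on Day3 and -0.11 on Day14. Nkg7 was 0.75 above on Day3, when 3 of 4 libraries lay above all Day0 libraries, and -0.022 on Day14. Cd3g ranged from -0.22 on Day7 to 0.38 on Day14. On Day10, Cd247 was 0.83 and Cd3d 0.60 above, both without overlap. Where the groups did not overlap, the exact two-sided permutation p was 0.0286, the smallest that 4 against 4 libraries can give, and its Benjamini-Hochberg adjusted value over the 54 relations was 0.0617, so that none of these differences passed 0.05 after adjustment.

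**Figure D3:**
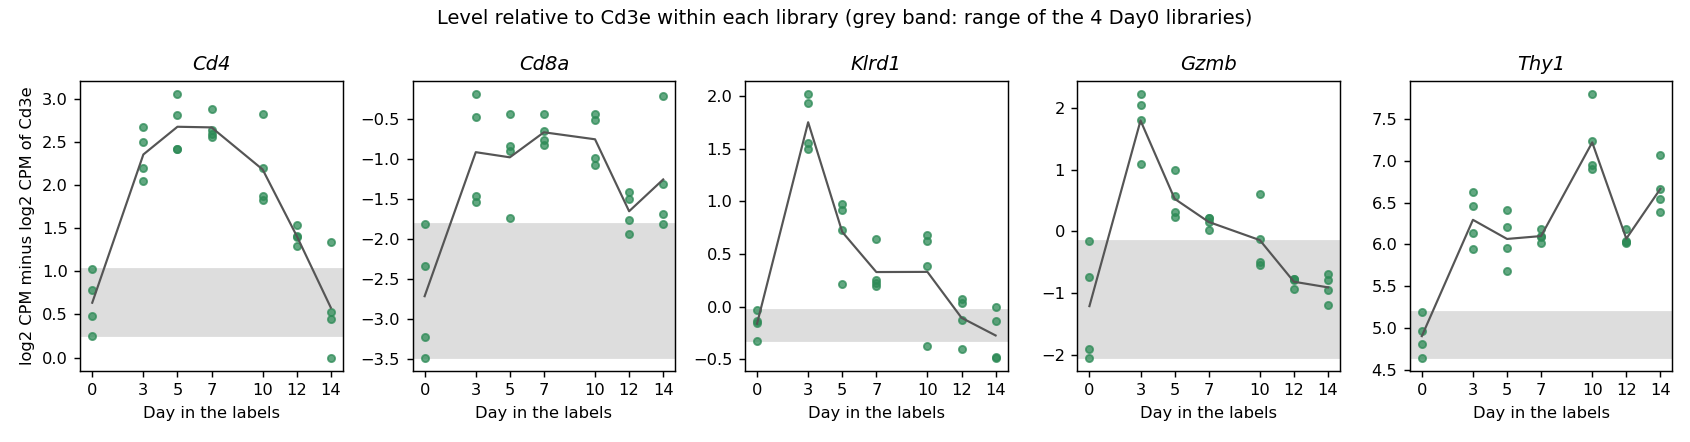
Log2 CPM of each gene minus log2 CPM of Cd3e in the same library is plotted on the y axis, whose range differs between panels, against the day in the labels; points are libraries, the line joins the day means, and the grey band spans the 4 Day0 libraries. Cd4 stayed above the band until Day12 and its mean was back inside it on Day14, Klrd1 and Gzmb were highest on Day3, and Thy1 stayed above the band throughout.

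Over the 28 libraries, the levels (log2 CPM) of the chain genes went together, with Pearson's r between 0.75 and 0.82 for each pair of Cd3d, Cd3e, Cd3g and Cd247. Klrd1 and Gzmb had r = 0.85 and Cd4 and Cd8a r = 0.74. These values share the course of the days, since within days r was 0.11 for Cd3e and Cd3g, 0.70 for Cd3d and Cd3g, 0.55 for Cd4 and Cd8a and -0.23 for Klrd1 and Gzmb, and they are descriptions without a test. Among 14674 other genes with a mean of at least 1 CPM, those most like each of the 10 genes over the 28 libraries were mostly different ones. For Nkg7 they were Cd2 (r = 0.94), a T and natural killer cell adhesion gene, Rnase6 (0.91) and H2-DMb1 (0.91), and for Klrd1 Napsa (0.96), Rasgrp4 (0.95) and Hfe (0.95). For Gzmb they were Fcgr1 (0.96), the high-affinity IgG receptor of macrophages, Sirpb1a (0.96) and Il10ra (0.95), and for Cd4 the lysosomal enzyme genes Scpep1 (0.95) and Arsa (0.94) with Man1c1 (0.94). Thy1 went with Tmem119 (0.94), Tspan11 (0.91) and Pld3 (0.91). Cd3e went with Hdac5 (0.91) and the keratin genes Krt80 (0.91) and Krt77 (0.91), Cd3g with Susd2 (0.93), Hepacam2 (0.92) and Tprgl (0.92), Cd3d with Hamp2 (0.87), Gltp (0.86) and Ang (0.85), Cd247 with Hamp2 (0.89), Ccl24 (0.88) and Fam89a (0.88), and Cd8a with Septin2 (0.82), Il1f8 (0.79) and Snx4 (0.78).

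Other T cell genes are read against the shares of all genes higher and lower, 31.8% and 34.8% on Day3, 25.6% and 24.8% on Day7, and 28.2% and 34.5% on Day14. Of 18 tested genes of T cell receptor signalling, 4 were higher and 5 lower on Day3, which was no more than over all genes, 6 and 4 on Day7, and 3 and 10 on Day14, with median log2 fold changes of -0.074, 0.14 and -0.68. Trat1, an adaptor bound to the receptor complex, fell 6.49-fold by Day10 (adjusted p = 5.26e-09), from 84 to 288 counts on Day0 to 20 to 32. Lcp2, the adaptor SLP-76, which myeloid cells and platelets use as well, rose 4.64-fold by Day3 (adjusted p = 2.4e-20), and Themis, a signalling gene of T cell development, fell 4.14-fold by Day14 (adjusted p = 0.000115). The receptor constant genes Trac, Trbc1, Trbc2 and Trdc were not matched by name in the count table, so the alpha beta and gamma delta receptors could not be compared. Of 16 listed genes of gamma delta and epidermal T cells, 9 were matched and tested, without Trdc. Of these 9, 2 were higher and 4 lower on Day3 (31.8% and 34.8% of all genes) and 3 and 5 on Day14 (28.2% and 34.5%). Among them Cd7 fell 4.46-fold by Day10 (adjusted p = 9.6e-13), the chemokine gene Xcl1 fell 2.74-fold by Day10 (adjusted p = 1.4e-06), and Fcer1g, an Fc receptor chain shared with myeloid and mast cells, rose 2.91-fold by Day3 (adjusted p = 2.02e-13).

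Of 13 tested helper and regulatory T cell genes, 3 were higher and 4 lower on Day3 (31.8% and 34.8% of all genes), 5 and 5 on Day7 (25.6% and 24.8%) and 0 and 8 on Day14 (28.2% and 34.5%), so that the Day3 counts were no more than over all genes. Foxp3, the lineage factor of regulatory T cells, had 21 to 87 counts on Day0, 84 to 132 on Day7 and 11 to 21 on Day14. It was 1.78-fold higher on Day7 (adjusted p = 0.0187), where its counts overlapped those of Day0, and 4.00-fold lower on Day14 (adjusted p = 9.43e-06). On Day5, when Cd4 was already higher than on Day0, Foxp3 had 26 to 54 counts. Cd40lg, the helper T cell ligand of CD40, rose 3.58-fold by Day5 on 7 to 27 counts (adjusted p = 0.00694). Il17a, a cytokine of gamma delta T cells and Th17 cells, had 0 to 8 counts on Day0, 64 to 115 on Day3, 4 to 19 on Day5 and 0 in all 4 libraries on Day7, where a count of 0 allows up to 3 counts.

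Of 10 tested cytotoxic effector genes, 4 were higher and 4 lower on Day3 (31.8% and 34.8% of all genes), 1 and 6 on Day10 (23.5% and 26.9%), and 0 and 8 on Day14 (28.2% and 34.5%), so that the Day3 counts were close to those over all genes. Prf1, which encodes the pore-forming protein perforin, did not rise with Gzmb: it had 167 to 239 counts on Day0 and 92 to 131 on Day3, 1.77-fold lower (adjusted p = 0.000436), and was 5.34-fold lower on Day10 (adjusted p = 1.95e-10). Gzma, another granzyme gene, had 44 to 252 counts on Day0 and 201 to 245 on Day3 (log2 fold change 0.60, adjusted p = 0.137), and was 4.77-fold lower on Day14 (adjusted p = 2.35e-05). Srgn, the granule proteoglycan serglycin, which mast and myeloid cells also make, rose 11.3-fold by Day3 (adjusted p = 5.11e-21). Gzmk had 0 to 7 counts on Day0, 11 to 32 on Day3 and 0 or 1 on Day14. Ifng, at 1 to 20 counts on the days given here, had too few counts for a test.

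Of 16 tested natural killer cell genes, 5 were higher and 1 lower on Day3 (31.8% and 34.8% of all genes), 0 and 9 on Day10 (23.5% and 26.9%), 0 and 4 on Day12 (21.7% and 25.6%), and 0 and 14 on Day14 (28.2% and 34.5%), with a median log2 fold change of 0.44, -1.08, -0.26 and -1.36. Ncr1, the gene of the natural killer receptor NKp46, had 23 to 74 counts on Day0, 44 to 66 on Day3 and 5 to 11 on Day10. It did not pass the test on Day3 (log2 fold change 0.17, adjusted p = 0.644) and was 5.15-fold lower on Day10 (adjusted p = 5.74e-06). Klre1, which pairs with other killer cell receptors, rose 4.65-fold by Day3 (adjusted p = 0.000306) from 1 to 13 counts to 22 to 38, and Klra7, a Ly49 receptor gene, fell 8.03-fold by Day10 (adjusted p = 7.16e-07). Klra genes are near-identical copies of each other, so reads may be divided among them. Of 20 homing, residence and survival genes, 12 were higher and 6 lower on Day3 (31.8% and 34.8% of all genes) and 2 and 13 on Day14 (28.2% and 34.5%). Ccl27a, a keratinocyte chemokine for skin-homing T cells, fell 5.43-fold by Day3 (adjusted p = 3.87e-17) and the skin-homing receptor gene Ccr4 fell 6.21-fold by Day14 (adjusted p = 9.47e-11).

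Markers of other cells moved over the same days. All 7 macrophage markers were higher on Day3 and Day5 (31.8% and 29.0% of all genes), and all 7 were lower on Day14 (34.5% of all genes). Their summed level was 1771 to 2702 CPM on Day0, 5110 to 5384 CPM on Day3, 5235 to 5679 CPM on Day5, 3733 to 4000 CPM on Day7 and 871 to 933 CPM on Day14. All 7 neutrophil markers were higher from Day3 to Day10 (23.5% to 31.8% of all genes), with sums of 16.4 to 42.7 CPM on Day0 and 4369 to 5514 CPM on Day3. Dendritic and Langerhans cell markers summed to 709 to 1113 CPM on Day0, 642 to 717 CPM on Day3, 277 to 298 CPM on Day10, 438 to 515 CPM on Day12 and 241 to 287 CPM on Day14, and 7 of 8 were lower on Day14 (34.5% of all genes). Mast cell markers summed to 505 to 635 CPM on Day0, 329 to 399 CPM on Day3, 291 to 320 CPM on Day10, 470 to 592 CPM on Day12 and 177 to 237 CPM on Day14. The dendritic cell and mast cell sums were thus lower on Day10 than on Day7 and Day12 without overlap, as was Cd3e. Cd4 had its highest mean on Day7, which did not differ from Day5 in edgeR's test (adjusted p = 0.384). Macrophage sums on Day7 were below those of Day3 and Day5 and above all Day0 sums. Gzmb was highest on Day3, as were the neutrophil sums. The natural killer cell and cytotoxic effector sums were also highest on Day3, at 396 to 427 CPM and 740 to 907 CPM. The part of macrophages, dendritic cells, mast cells and neutrophils in the levels of Cd4, Gzmb and the other genes was not tested.

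**Figure D4:**
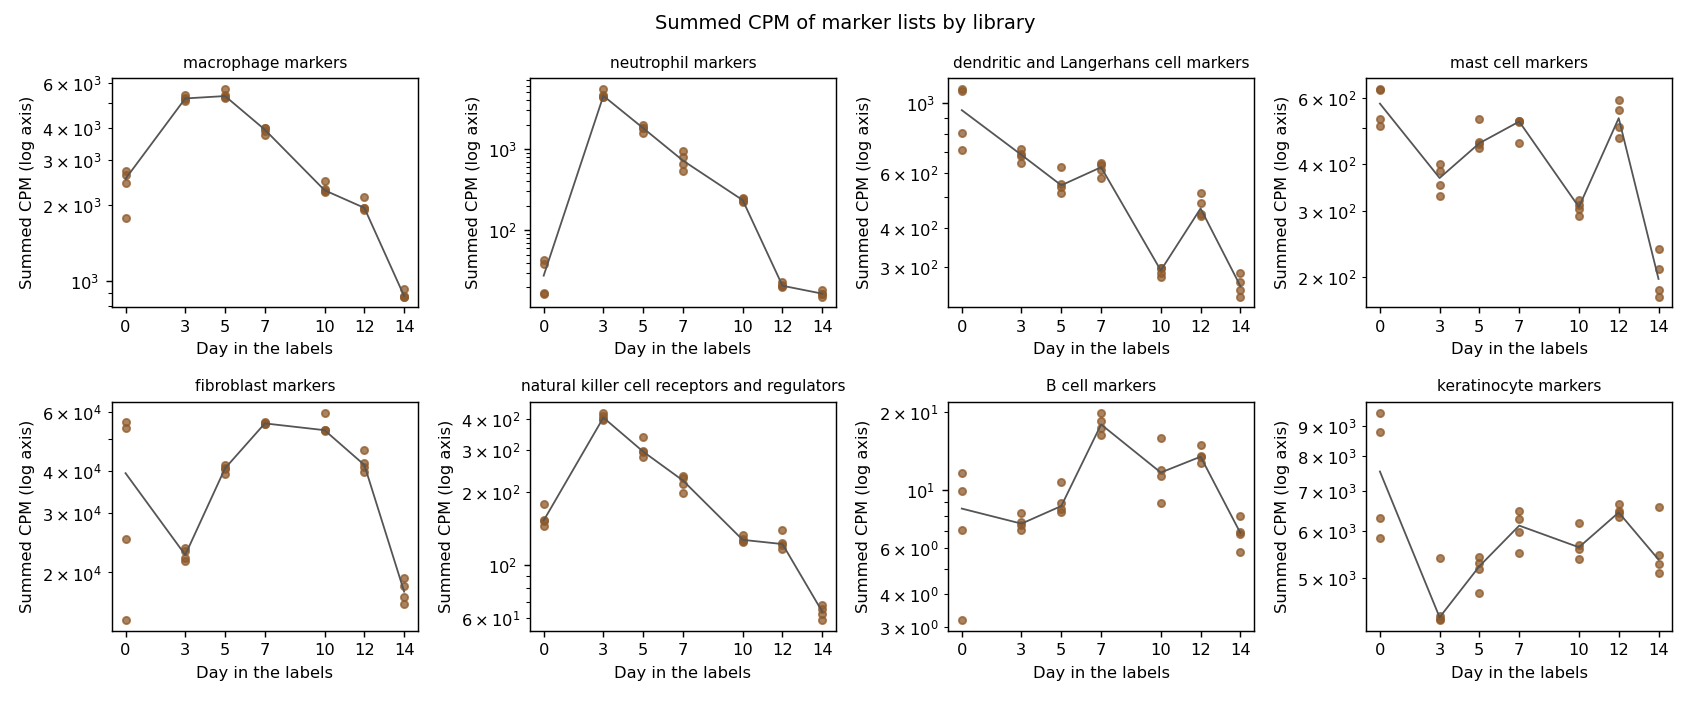
Summed CPM of 8 marker lists is plotted on log axes against the day in the labels; points are libraries and the line joins the day medians. Neutrophil sums were highest on Day3 and macrophage sums on Day3 and Day5, and the dendritic cell and mast cell sums dipped on Day10, rose on Day12 and fell again on Day14.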

How the data were processed

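Skin of the wound site from mice on 7 days, 4 libraries a day, was sequenced as total RNA (TRIzol extraction, VAHTS Universal V6 library kit). The authors deposited raw counts of reads per gene symbol for each library, which were not normalized. They also deposited FPKM values, which were found to equal the count divided by a constant for the gene and by the library total in the 15868 genes checked, those with at least 20 counts in at least 10 libraries. Per the labels, the submitters' processing notes name fastp, R 3.2.0 and the mm10 build. The study's methods name DESeq2, and the aligner, counter, annotation and strandedness are not given in the sources used here. Each library held 36706513 to 40655764 counts, and a count of 0 allows up to 3 counts, which covers counting error only. Replicate pairs of every day differed by more than sampling noise.

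The counts went into edgeR 4.0.16 (R 4.3.3). Low genes were removed by filterByExpr over the 7 days, which kept 18107, libraries were scaled by TMM, and a single quasi-likelihood model of the 28 libraries with 21 residual degrees of freedom gave two-sided tests. P-values were adjusted over all genes tested by the Benjamini-Hochberg method, and an adjusted p under 0.05 was a call. For each of the 10 genes the log2 CPM values, computed with a prior count of 2, were also permuted exactly between the groups of 4 and 4 libraries (two-sided, smallest p 0.0286). The scripts were tested on simulated data. Alternatives were DESeq2 1.42.0, limma 3.58.1 on log2(FPKM + 1) and log2(FPKM + 0.1), other normalizations and filters, the 8 libraries of a comparison alone, the replicate number as a block, the study's criteria, each library left out in turn, and pairs of Day0 libraries.

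The 10 genes and the gene lists were chosen with earlier results of these data known. Named from each list were the 3 genes with the largest change among those called on any wound day, with Foxp3, Ncr1, Prf1, Gzma and Ifng whatever their values, and for each of the 10 genes the 3 others with the highest Pearson's r. A gene that this rule names is not reported here. For the lists of other cell types, summed CPM is given, with fold changes for some of the B cell, mast cell and dendritic cell genes that the same rule names. Gene positions came from GENCODE M21 on GRCm38 and promoters from RefSeq on GRCm38.p6.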

Additional observations from a re-analysis of the deposited data

Results flagged for a closer look

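In 3 of the 70 groups of 4 libraries (10 genes on 7 days), 1 library stood apart from the other 3 by more than Dixon's 95% limit, where chance gives about 3.5. For Cd3d on Day5, replicate 4 had a log2 CPM of 2.355 and the others 1.653 to 1.73. For Cd3g on Day14, replicate 1 had 2.643 and the others 3.198 to 3.304. For Cd247 on Day3, replicate 3 had 2.748 and the others 2.563 to 2.575. The Cd3g and Cd247 calls against Day0 on those days were kept without these libraries, and Cd3d on Day5 was called lower without its replicate 4.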

How the results depend on the processing

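DESeq2 changed none of 110 calls of the 10 genes. DESeq2's size factors in edgeR, no filter on low counts and at least 10 counts in every library changed none of the 60 calls against Day0, and calls between successive days were not examined under them. The replicate numbers did not pair the libraries (correlation of deviations over 0.1 in 1 of 84 same-numbered pairs, median -0.00091), and the replicate block changed none of 110 gene calls (5 genes lower on Day3 and 8 on Day14 with the replicate block). By the study's criteria 1 gene was higher and 0 lower on Day3, 0 and 1 on Day10, 0 and 4 on Day14, and 0 in both directions on Day5, Day7 and Day12, each against Day0. Without composition normalization, which moved the median log2 fold change of all genes by 0.143 on Day12 and 0.126 on Day14 and the share of higher among called genes by 21.5 and 11.2 percentage points, 1 gene was higher from Day7 to Day10 and 0 lower from Day10 to Day12. From Day5 to Day7, Day7 to Day10 and Day10 to Day12 the share of higher calls moved by 10.1, 11.3 and 16.3 points. The 8 libraries of the comparison alone gave 2 genes higher on Day5, and Day0 replicates 1 and 4 alone gave 2 higher on Day12.

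Leaving out 1 library gave 3 to 5 genes lower on Day3 (3 without Day3 replicate 2), 0 to 2 higher from Day5 to Day7, and 3 to 6 higher and 0 to 1 lower from Day10 to Day12. Uncalled differences that changed sign ranged, with 1 library left out, from -0.018 to 0.15 for Klrd1 on Day5, -0.29 to 0.033 and -0.089 to 0.22 for Cd4 on Day10 and Day12, -0.075 to 0.57, -0.0070 to 0.63 and -0.45 to 0.25 for Cd8a on Day10, Day12 and Day14, -0.0039 to 0.27 for Cd3d from Day3 to Day5 and -0.022 to 0.14 for Cd8a from Day10 to Day12. Cd8a on Day14 was 0.030 in limma on log2(FPKM + 0.1) and 0.18 with Day0 replicates 1 and 4 alone. With these 2 libraries Cd4 on Day10 was 0.27. With Day0 replicates 2 and 3 alone Cd8a and Gzmb on Day10 were -0.054 and 0.19, and Cd4 and Gzmb on Day12 -0.23 and 0.44. Relative to Cd3g in place of Cd3e, Nkg7 on Day10, Klrd1 on Day12 and Gzmb on Day14 were -0.096, -0.0027 and -0.075. The causes of these changes were not tested. Precision was limited by counts for Cd8a (14 to 100 a library) and by the spread of Day0.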

Other observations

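B cell markers had a summed level of 3.17 to 11.6 CPM on Day0 and 16.3 to 19.9 CPM on Day7. Of the 5 tested, 3 were higher on Day7 (25.6% of all genes) and 2 lower on Day14 (34.5% of all genes). Jchain, the joining chain of secreted antibodies, was 2.81-fold higher on Day7 (adjusted p = 0.00183), and Cd79b, a signalling chain of the B cell receptor, had 83 to 119 counts on Day0 and 35 to 42 on Day14, 2.68-fold lower (adjusted p = 8.96e-08). Of 7 tested mast cell markers, 1 was higher and 2 lower on Day5 (29.0% and 30.6% of all genes), and 5 were lower on Day14 (34.5% of all genes). The 1 higher on Day5 was Fcer1a, the IgE receptor alpha chain, at 8.76-fold (adjusted p = 4.68e-15). The mast cell protease genes Cpa3 and Tpsb2 were 4.38-fold and 3.58-fold lower on Day14 (adjusted p = 6.14e-14 and 7.82e-14). Among dendritic cell markers, Cd207, the langerin of Langerhans cells, was 4.72-fold lower on Day3 (adjusted p = 1.37e-13) and Siglech, a plasmacytoid dendritic cell gene, 10.1-fold lower on Day14 (adjusted p = 8.05e-09). All 5 skeletal muscle markers were lower than on Day0 on every wound day (24.8% to 34.8% of all genes), with sums of 16381 to 27464 CPM on Day0 and 4023 to 5023 CPM on Day14. Hair follicle marker sums were 247 to 2161 CPM on Day0, 7.29 to 13.7 CPM on Day3 and 4480 to 5880 CPM on Day12.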
